A study of Homo sapiens with 10 samples.

Results

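Oxidative phosphorylation was described here through its nuclear genes, the genes of the cell nucleus that encode subunits of the respiratory chain and of ATP synthase. Members were taken by name from the deposited transcript annotation: NDUF genes of the A, B, C, S and V series, SDHA to SDHD, UQCR genes, CYC1, COX genes of subunits 4 to 8 and ATP5 genes, without ATP5S and without names that end in P and digits. The rule gave 83 of 57110 gene identifiers, with 286 of 99493 transcripts. It used names and no measured value. Their levels came from nanopore RNA sequencing of 10 libraries from 7 established human ovarian cancer cell lines, made as a benchmark for a transcript quantification tool. COV362, COV504, OVKATE, OVMANA, OVTOKO and SK-OV-3 had 1 library each on the PromethION. IGROV-1 had 2 libraries on the PromethION and 2 on the MinION, a smaller instrument of the same kind. The labels give total RNA, no treatment and no genetic change for any line, and do not say whether the IGROV-1 libraries came from separate cultures. Each p-value below therefore measures only the spread between those libraries, which may be technical.

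In oxidative phosphorylation, complexes I and II pass electrons from NADH and succinate to ubiquinone, complex III passes them on to cytochrome c, and complex IV passes them to oxygen. Complexes I, III and IV pump protons across the inner mitochondrial membrane, and ATP synthase uses the gradient to make ATP. Most subunits are encoded in the nucleus and imported, while a few core subunits of complexes I, III and IV and of ATP synthase are encoded in mitochondrial DNA, so the complexes are built from the products of both genomes. Several subunits have a second gene that is used mainly in muscle or testis.

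Sequences at 3 places named in the results below are shown here, 5′ to 3′. The first is the gap between the divergent starts of LRRC41 and UQCRH (GRCh38, chr1:46303605-46303634, plus strand, RefSeq sequence of GRCh38.p14), where both genes were low in 3 lines. Capitals mark the 22 bases between the annotated starts. The second pair of sequences is the end of exon 1 and start of exon 2 of NDUFS5 (chr1, plus strand, GENCODE 29 transcripts), whose forms were used in different shares between lines. Capitals mark the 4 bases that only the longer form carries, all of them ahead of the start codon. The third pair is the end of the coding region of ATP5C1 (chr10, plus strand, GENCODE 29), with and without a 37-base exon at chr10:7806974-7807010. Here capitals mark coding bases and the stop codon opens the lower-case part.
LRRC41 and UQCRH gap: acatGCCAATCTGAGCATGTGTTCGCgacc
NDUFS5 ENST00000372969: gcacgagcatcggGTAGccatgcctttctt
NDUFS5 ENST00000372967: gcacgagcatcggccatgcctttctt
ATP5C1 ENST00000335698, exon left out: TGGTGCTGCAGCTCTGtaaagaaggaaaat
ATP5C1 ENST00000356708, exon kept: TGGTGCTGCAGCTCTGGATtaatgaaaatc

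Levels are given as CPM, each count scaled to a common library total, with no division by transcript length unless stated. Sums and rankings are on this scale. The log2 changes of the tests use a further scaling between libraries (TMM factors) and can differ from the ratio of the CPM values beside them. In OVKATE they were lower: UQCRH, at 1114 CPM against an IGROV-1 PromethION mean of 863 CPM, had a log2 change of 0.07. Library totals lay between 1729782 and 3666224 counts. Epithelial markers (EPCAM, KRT8, KRT18, KRT19 and CDH1) summed to 404 to 8791 CPM in the libraries, and PAX8, EMX2 and WT1, markers of the Muellerian lineage, to 85.6 to 340 CPM. Lists of other cell types were not silent as a whole: the 5 leukocyte genes summed to 359 (OVKATE) to 1065 CPM (OVTOKO), the 5 fibroblast genes to 0.578 (OVTOKO) to 434 CPM (COV362) and the 3 endothelial genes to 0.534 (OVMANA) to 25.8 CPM (COV504). Of these, 3 leukocyte genes (PTPRC and CD3E among them), the fibroblast genes DCN and PDGFRB and the endothelial gene VWF were under 1 CPM in all 10 libraries. Mitochondrial ribosomal RNA took 9.13% and 10.9% of the counts in the IGROV-1 PromethION libraries and 1.01% to 3.31% in the other 8. Transcripts under 1000 nt held 20.8% to 28.0% of nuclear counts. The part of these traits in the results below was not tested, except that the calls were repeated without the mitochondrial ribosomal RNA.

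Together the members made up 4.68% of all counts in OVKATE (46810 CPM, 95% Wilson interval 4.65% to 4.71%). In the other 9 libraries the share ran from 2.23% in OVTOKO (2.21% to 2.25%) to 3.04% in IGROV-1 MinION replicate 1 (3.02% to 3.06%). OVMANA held 2.87%, COV362 2.80%, COV504 2.57%, SK-OV-3 2.54%, and the IGROV-1 PromethION libraries 2.66% and 2.39%. These intervals cover counting error only, and the IGROV-1 replicates differed by more than them. OVKATE thus stood apart from all other libraries, and the 2 lowest were OVTOKO and 1 of the IGROV-1 libraries. In bulk RNA, fewer cells with a transcript and less of it per cell cannot be told apart.

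**Figure D1:**
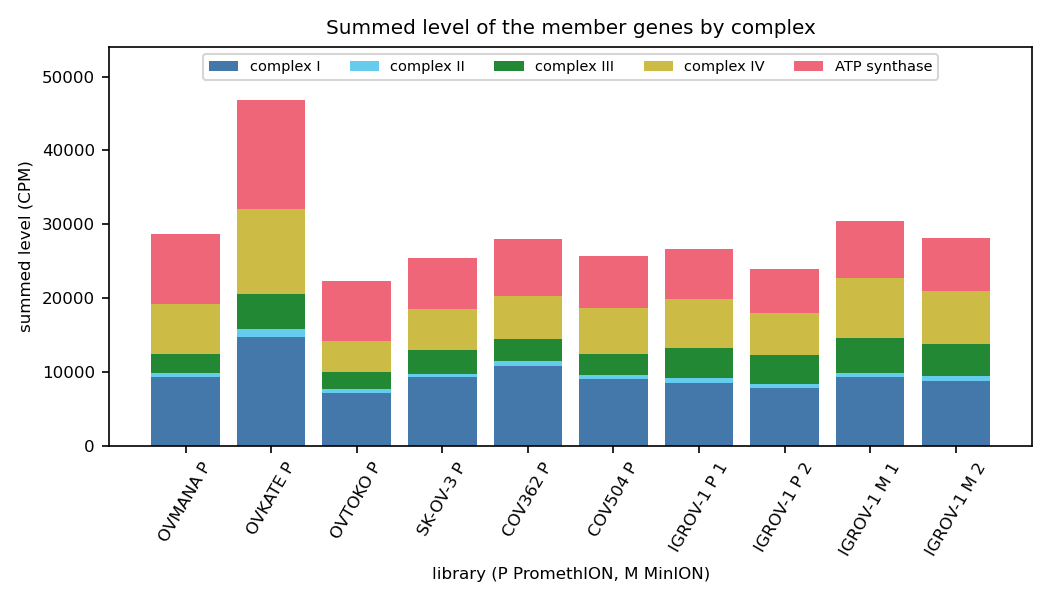
Summed level in CPM (y axis) of the member genes of each complex, stacked, in the 10 libraries (x axis, P PromethION, M MinION). OVKATE reaches 46810 CPM, while the other libraries lie between 22301 and 30419 CPM.

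The sum in OVKATE was the highest of all libraries for every complex. Its 37 complex I members summed to 14701 CPM, against 7107 (OVTOKO) to 10818 CPM (COV362) in the other libraries. Complex II reached 1101 CPM against 486 to 662, complex IV 11485 against 4242 to 8170, and ATP synthase 14726 against 5948 to 9522 CPM. Complex III was the exception to the wide gap, with 4797 CPM in OVKATE and 4675 and 4433 CPM in the IGROV-1 MinION libraries. In the test against IGROV-1 PromethION described below, 1 of its 10 members was called higher in OVKATE and 3 lower. Over all genes, 26.7% were called higher and 22.3% lower there. The median log2 change of the complex III members was 0.004. The low end differed by complex: OVTOKO was lowest for complexes I, III and IV, SK-OV-3 for complex II, and IGROV-1 PromethION replicate 2 for ATP synthase. For complex III this rested on UQCRH, described below. Without UQCRH and its copy UQCRHL, COV362 was lowest (2255 CPM, against 2330 CPM in OVTOKO).

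Of the 83 members, 76 had a median of at least 10 CPM over the 7 lines (IGROV-1 as its PromethION mean). The other 7 were ATP5J2LP, COX6A2, COX6B2, COX7A1, COX7B2, COX8C and ATP5L2. OVKATE was the highest line for 49 of the 76 and the lowest for 1, and OVTOKO the lowest for 22 and the highest for 2. Between the lowest and the highest line the median member spanned 1.47 on the log2(CPM + 1) scale, and 66 of the 76 spanned more than 1. Over all 8019 genes with a median of at least 10 CPM that span was 1.76. The members' transcripts were short, with a median length of 959 nt against 3040 nt over those genes. Divided by length, the highest median levels belonged to the complex IV subunits COX7C (1357 CPM per kb), COX8A (1272) and COX5B (961), the ATP synthase subunit ATP5I (1009) and the complex III subunit UQCRQ (902). At the low end were the near-silent COX6B2 (0.273 CPM per kb), the copy genes UQCRHL (6.12) and ATP5L2 (11.1), and SDHC (7.96) and NDUFA9 (9.74), whose counts fell largely on long transcripts (mean lengths 12855 and 8269 nt).

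**Figure D2:**
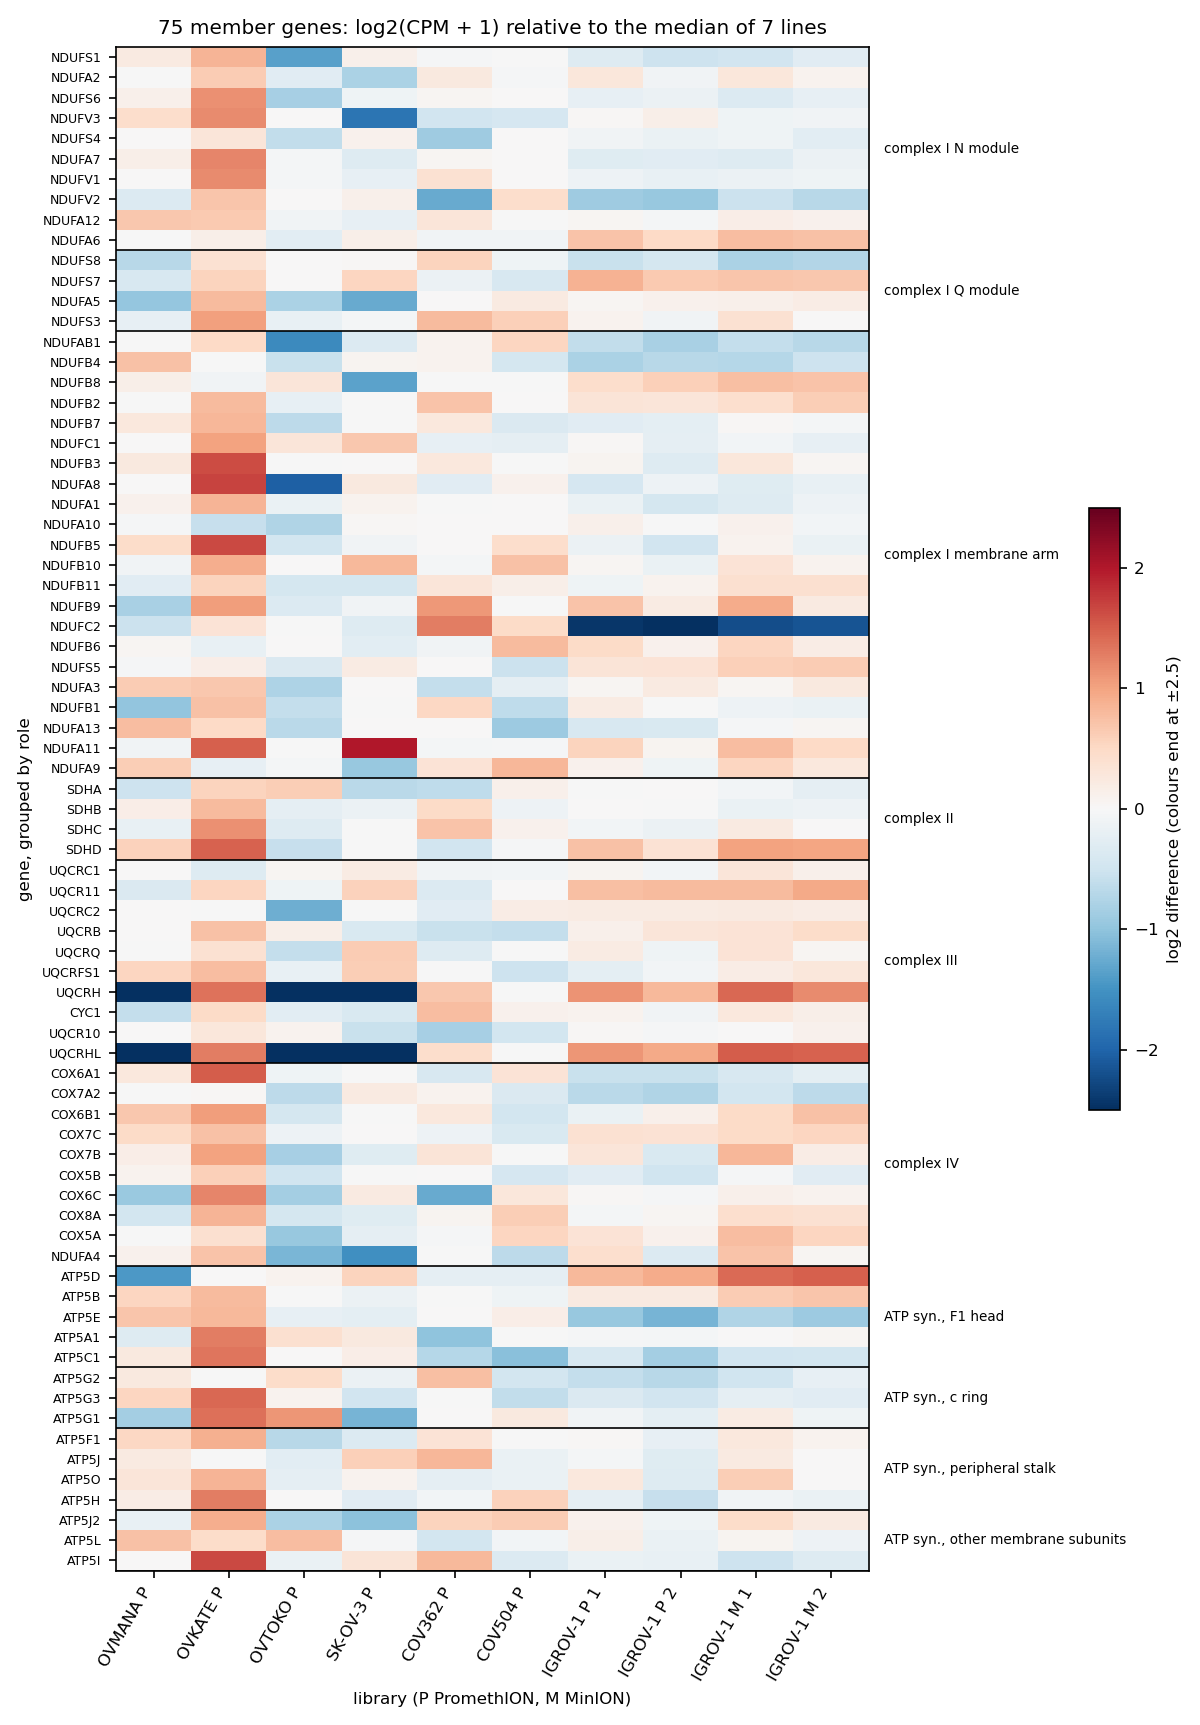
Log2(CPM + 1) of 75 of the 76 member genes (rows, grouped by role) in 10 libraries (columns), relative to the median of the 7 lines; red is higher and blue lower. The OVKATE column is mostly red, UQCRH and UQCRHL are blue in OVMANA, OVTOKO and SK-OV-3, and NDUFC2 is blue in the IGROV-1 columns.

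Between instruments, the members were compared in IGROV-1 with edgeR's quasi-likelihood test over all genes and Benjamini-Hochberg adjustment, calling an adjusted p under 0.05. Without pairing the libraries by replicate number, the test called 1 of 77 tested members, which was lower on the MinION, against 0.906% of the 10041 genes tested (0.11% higher and 0.797% lower), and 14 members had an unadjusted p under 0.05. The member called was ATP5L2 (ATP5MGL in current naming), a copy of the ATP synthase subunit gene ATP5L. It stood at 11.1 and 8.59 CPM on the PromethION and 0.273 and 1.24 CPM on the MinION. The log2 change was -3.73 (SE 0.53, edgeR adjusted p = 0.018). It passed the filter on low counts only through the PromethION libraries, where it is high, which bears on the call. Leaving out either MinION library or the filter on low counts ended the call, and over all 13 alternatives edgeR and DESeq2 gave an adjusted p between 1.1e-09 and 0.50. In the other lines, all on the PromethION, ATP5L2 lay between 7.09 and 12.7 CPM. Its parent gene ATP5L stood at 841 and 684 CPM on the PromethION and 795 and 700 CPM on the MinION, with overlapping groups. Reads of such a copy may be shared with the parent gene.

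The other members differed less between instruments. The largest positive values were COX6B1 at 0.58 (SE 0.14, edgeR adjusted p = 0.11), ATP5D at 0.54 (SE 0.12, edgeR adjusted p = 0.091) and COX7B at 0.51 (SE 0.27, edgeR adjusted p = 0.38), all on the log2 scale as MinION minus PromethION. NDUFS8, at -0.32 (SE 0.12, edgeR adjusted p = 0.25), was among the lowest values after ATP5L2. The median over the members was 0.14, against -0.0015 over all genes. These tests did not pair the libraries, and the count of calls depended on that choice. With the replicate number as a block, 34 of 77 members were called (29 higher), 44.2% against 19.3% of all genes. The labels do not say what the replicate numbers share.

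Each other line was compared with the 2 IGROV-1 PromethION libraries in a fit over all 10 libraries. A line of 1 library is assumed there to vary like IGROV-1. The 6 comparisons share their IGROV-1 libraries and are not independent. In OVKATE, 49 of 78 tested members were called, 39 higher and 10 lower. Over the 13029 genes tested, 49.0% were called in OVKATE, 26.7% higher and 22.3% lower. The median log2 change was 0.48 over the members and 0.01 over all genes.

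In the 5 other lines 28 to 38 of the 78 members were called. SK-OV-3 had 38 (12 higher, 26 lower, with 21.9% and 19.8% of all genes and 41.7% in all). OVMANA had 35 (23 higher, 12 lower, with 18.9% and 16.5% of all genes and 35.4% in all), and COV362 had 35 (20 higher, 15 lower, with 23.6% and 18.9% and 42.5% in all). OVTOKO had 34 (12 higher, 22 lower, with 18.2% and 15.9% and 34.1% in all). COV504 had 28 (11 higher, 17 lower, with 23.9% and 19.6% and 43.5% in all). As shares of the members, the calls came to 62.8% in OVKATE, against 49.0% of all genes. They came to 48.7% in SK-OV-3 (against 41.7%), 44.9% in OVMANA (35.4%), 44.9% in COV362 (42.5%) and 43.6% in OVTOKO (34.1%). In COV504 the members' share, 35.9%, lay below that of all genes, 43.5%. These shares depended on the filter. With a filter at a mean of 10 CPM (76 members, 8708 genes), SK-OV-3 had 48.7% against 50.0% of all genes and COV362 48.7% against 48.8%. The other lines had 67.1% in OVKATE (against 54.9%), 50.0% in OVMANA (43.2%), 47.4% in OVTOKO (42.6%) and 36.8% in COV504 (49.8%). The members' median log2 changes were 0.17 in OVMANA, 0.15 in COV362, -0.10 in COV504, -0.15 in OVTOKO and -0.28 in SK-OV-3, against -0.01 to 0.03 over all genes in the 6 comparisons. DESeq2 called fewer members in each line, from 12 in COV504 (15.4% of the members, against 13.9% of all genes) to 25 in OVKATE (32.1%, against 16.5%). Of the 25 in OVKATE, 24 were higher and 1 lower, where edgeR had 39 and 10.

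**Figure D3:**
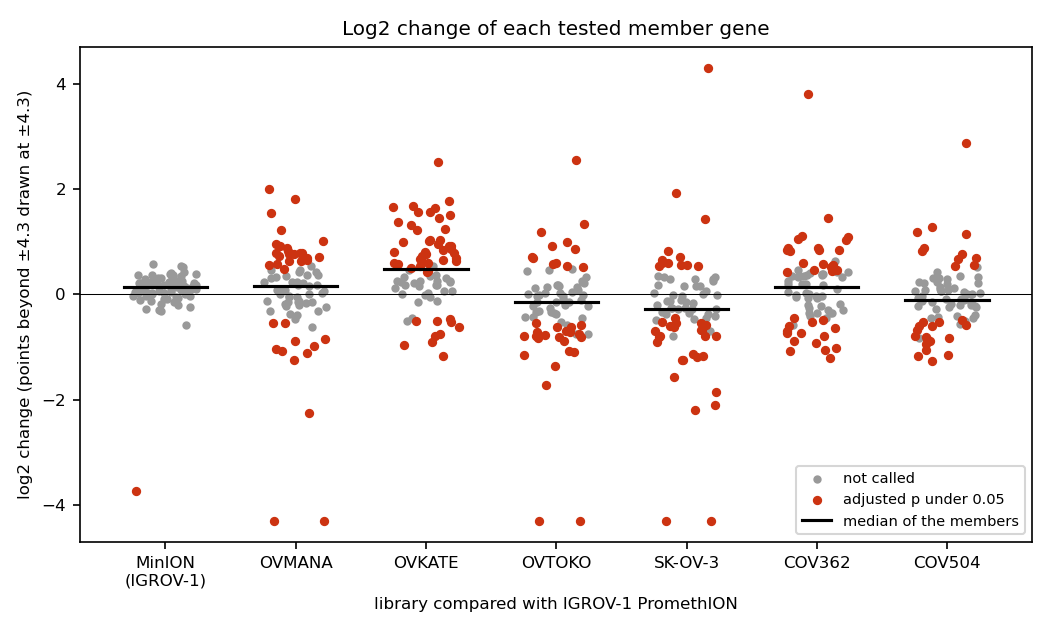
Log2 change (y axis) of each tested member between the MinION and PromethION libraries of IGROV-1 or between each other line and IGROV-1 PromethION (x axis). Red points were called by edgeR at an adjusted p under 0.05, black bars are medians, and values beyond 4.3 either way are drawn at 4.3; the OVKATE median is 0.48.

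Within complex I, the N module takes electrons from NADH, the Q module hands them to ubiquinone and the membrane arm pumps protons. In OVKATE 6 of 10 N module members rose and 1 fell, against 26.7% and 22.3% of all genes, with a median log2 change of 0.90. NDUFV2, an iron-sulfur subunit of this module, stood at 330 CPM in OVKATE and 110 and 105 CPM in IGROV-1, a log2 change of 1.31 (SE 0.16, edgeR adjusted p = 0.00033). In COV504 it was 276 CPM, with 1.28 (SE 0.16, edgeR adjusted p = 0.00049), and in COV362 84.6 CPM, the lowest level, which was not called. NDUFV3, an accessory subunit of the same module, was at 21.3 CPM in SK-OV-3 and between 55.6 and 178 CPM in the other lines. Against IGROV-1 (79.5 and 86.3 CPM) it fell by 2.19 on the log2 scale in SK-OV-3 (SE 0.22, edgeR adjusted p = 0.00013). In SK-OV-3 3 of the 10 N module members fell and NDUFV2 alone rose, against 19.8% and 21.9% of all genes.

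The Q module has 5 members, all of them tested. OVMANA had 0 rises and 3 falls among their calls, and OVTOKO had 1 and 3. SK-OV-3 and COV504 each had 0 and 2, OVKATE 3 and 1, and COV362 2 and 1. The shares of all genes called in these lines were 18.2% to 26.7% for rises and 15.9% to 22.3% for falls. With only 5 members, these counts are too small to give the module a direction. NDUFA5, an accessory subunit, was at 64.1 CPM in OVMANA, 72.8 in OVTOKO and 52.2 in SK-OV-3, against 126 to 219 CPM in the other lines. These 3 lines were grouped by the values themselves, so their gap to the rest is a description and no test. NDUFS7, an iron-sulfur subunit next to the ubiquinone site, was highest in IGROV-1 (119 and 101 CPM on PromethION, 104 and 103 on MinION) and lowest in COV504 (48.5 CPM) and OVMANA (48.6 CPM). In COV504 its log2 change was -1.26 (SE 0.20, edgeR adjusted p = 0.0013). NDUFS8, another iron-sulfur subunit, was highest in COV362 at 381 CPM, against 176 and 189 CPM in IGROV-1, a log2 change of 1.11 (SE 0.15, edgeR adjusted p = 0.0006).

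NDUFC2, an accessory subunit of the membrane arm (chr11:78068304-78080219), separated IGROV-1 from all other lines. It stood at 117 and 113 CPM in the IGROV-1 PromethION libraries and 137 and 143 CPM on the MinION. The other lines had 441 (OVMANA), 515 (SK-OV-3), 641 (OVTOKO), 808 (OVKATE), 896 (COV504) and 1563 CPM (COV362). No library of another line overlapped with IGROV-1, on either instrument. The log2 changes ran from 1.93 in SK-OV-3 (SE 0.15, edgeR adjusted p = 3.6e-05) to 3.80 in COV362 (SE 0.15, edgeR adjusted p = 1.5e-06). The files join NDUFC2 with the neighbouring KCTD14 under 1 identifier. Counting only transcripts that GENCODE 29 gives to NDUFC2 left 111 and 107 CPM in IGROV-1 PromethION and 425 to 1504 CPM in the other lines.

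NDUFA8 varied about as widely over the lines, with a range of 3.74 on the log2(CPM + 1) scale against 3.75 for NDUFC2. This gene, an accessory subunit on the intermembrane side, was at 39.3 CPM in OVTOKO and 538 CPM in OVKATE, with 136 to 196 CPM in OVMANA, SK-OV-3, COV362 and COV504 and 123 and 151 CPM in IGROV-1. Its log2 change was -1.72 in OVTOKO (SE 0.21, edgeR adjusted p = 0.00057) and 1.67 in OVKATE (SE 0.16, edgeR adjusted p = 8.8e-05). NDUFA11, a membrane subunit, was at 951 CPM in SK-OV-3 and 671 CPM in OVKATE, above 222 to 237 CPM in OVMANA, OVTOKO, COV362 and COV504 and 348 and 250 CPM in IGROV-1. NDUFB8 was at 74.5 CPM in SK-OV-3 against 181 to 288 CPM elsewhere on the PromethION, and fell there by 2.11 on the log2 scale (SE 0.19, edgeR adjusted p = 7.4e-05). NDUFB4 was highest in OVMANA (983 CPM, against 342 and 365 CPM in IGROV-1) and NDUFAB1, the mitochondrial acyl carrier protein, in COV504 (443 CPM, against 197 and 172 CPM). Their log2 changes were 1.54 (SE 0.15, edgeR adjusted p = 0.00012) and 1.18 (SE 0.16, edgeR adjusted p = 0.00064). The steadiest members of complex I over the lines were NDUFA10 (49.1 to 87.4 CPM), NDUFA6 (183 to 333), NDUFS5 (279 to 511) and NDUFA12 (155 to 286 CPM). NDUFA10 and NDUFB8 were among the 3 largest falls in OVKATE, at -0.96 (SE 0.21, edgeR adjusted p = 0.0052) and -0.90 (SE 0.17, edgeR adjusted p = 0.0026), together with ATP5D. DESeq2 called only 1 member lower in OVKATE, so at most 1 of these 3 falls was called with it.

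Complex II, the succinate dehydrogenase that also acts in the citric acid cycle, has 4 subunits, all nuclear. In OVKATE SDHB, SDHC and SDHD were called higher, and SDHA was not called (176 CPM, against 119 and 119 CPM in IGROV-1). In COV362 SDHB and SDHC were called higher and SDHA and SDHD lower. OVMANA had no call among the 4. Over all genes, 49.0% were called in OVKATE, 42.5% in COV362 and 35.4% in OVMANA. SDHA, the flavoprotein subunit, was highest in OVTOKO at 184 CPM, and SDHD, a membrane anchor, was at 79.2 CPM there, its lowest level.

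In complex III, UQCRH was at 0 CPM in OVTOKO and SK-OV-3 and at 0.534 CPM in OVMANA, which is 1 count. UQCRH encodes the hinge protein, which sits at cytochrome c1 where cytochrome c docks. In the other lines its level was 1114 (OVKATE), 698 (COV362) and 437 CPM (COV504), and in IGROV-1 it was 954 and 771 CPM on PromethION and 1185 and 995 CPM on MinION. The groups of 3 and 4 lines were separated by more than 2 orders of magnitude. Taking a count of 0 to allow 3 counts per library, UQCRH was at least 498-fold lower in OVTOKO and at least 568-fold lower in SK-OV-3 than the IGROV-1 PromethION mean of 863 CPM (SD 129, n = 2). In OVMANA it was 1615-fold lower, with a counting interval of 290 to 63816. The adjusted p of edgeR was 3.3e-06 in OVMANA and SK-OV-3 and 3.4e-06 in OVTOKO. COV504 was also lower than IGROV-1, by -1.06 on the log2 scale (SE 0.21, edgeR adjusted p = 0.0044).

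UQCRHL, a copy of UQCRH elsewhere on chromosome 1 (chr1:15807169-15809348), followed its parent. It was at 0 in OVMANA, OVTOKO and SK-OV-3, at 33.6 CPM in OVKATE, 18.4 in COV362 and 13.3 in COV504, and at 29.9 and 26.6 CPM in IGROV-1 PromethION. In the libraries with UQCRH its level was 2.64% to 3.91% of UQCRH. The files could have split reads between these near-identical genes, so the level of UQCRHL is uncertain.

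LRRC41, a leucine-rich repeat gene that starts 23 bases from UQCRH on the other strand, was also low in the same 3 lines. It stood at 4.81 CPM in OVMANA, 12.7 in OVTOKO and 2.53 in SK-OV-3, against 49.5 (OVKATE), 68.2 (COV362), 56.9 (COV504) and 87.1 and 70.9 CPM (IGROV-1 PromethION). Its log2 changes were -3.96 in OVMANA (SE 0.35, edgeR adjusted p = 7.6e-05), -2.55 in OVTOKO (SE 0.29, edgeR adjusted p = 0.00037) and -5.16 in SK-OV-3 (SE 0.38, edgeR adjusted p = 3.3e-05). This gene was looked at after the values of UQCRH were known. The flanking genes POMGNT1, RAD54L, NSUN4 and FAAH had 4.05 to 39.0 CPM in these 3 lines. Their levels there overlapped with those of the other lines, although NSUN4 was highest in IGROV-1 (36.5 to 49.9 CPM). It was called lower in OVTOKO, SK-OV-3, OVKATE, COV362 and COV504 and not in OVMANA. LURAP1, also nearby, did not exceed 4.05 CPM in any library. These genes lie on both sides of the gap printed above, the nearest being RAD54L, which ends at chr1:46278473, and NSUN4, which starts at chr1:46340177. Their counts do not cover the gap itself, and why UQCRH and LRRC41 were low was not tested. The 300-base RefSeq windows at the starts of the genes overlap by 181 bases and hold 12 CG dinucleotides for UQCRH and 17 for LRRC41.

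**Figure D4:**
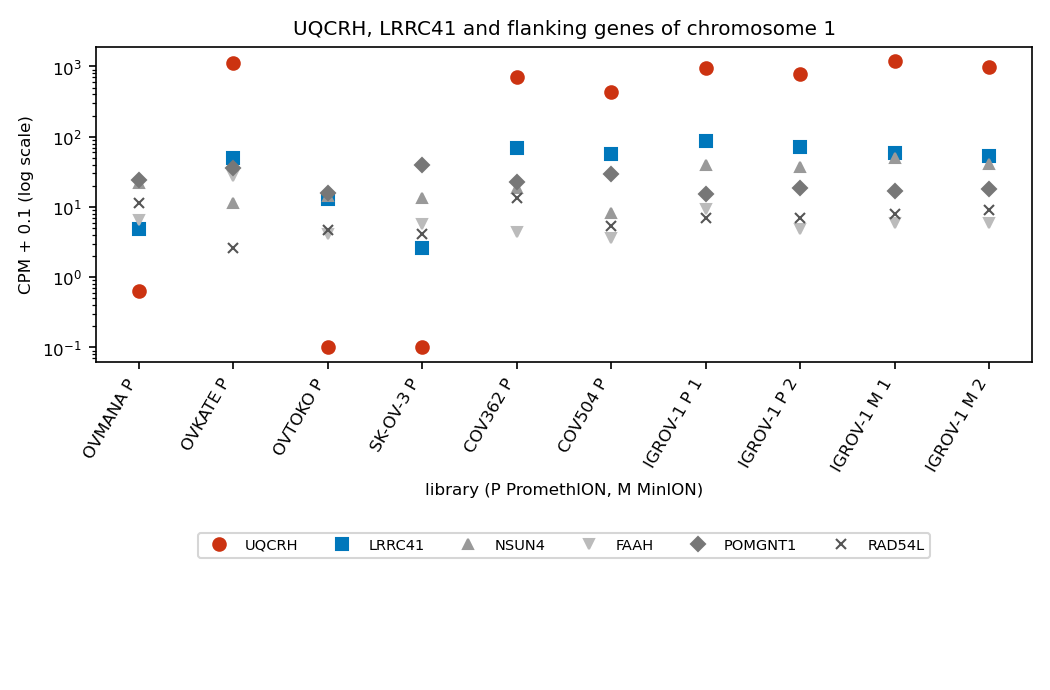
Levels (y axis, CPM + 0.1, log scale) of UQCRH, LRRC41 and 4 flanking genes in 10 libraries (x axis). UQCRH and LRRC41 are low together in OVMANA, OVTOKO and SK-OV-3, where the flanking genes lie between 4.05 and 39.0 CPM.

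The other complex III subunits moved far less. Without UQCRH and UQCRHL the complex summed to 2614 CPM in OVMANA, 2330 in OVTOKO and 3164 in SK-OV-3, within the range of the other 7 libraries (2255 to 3649 CPM). The core subunit UQCRC1 had the narrowest range of all 76 members, 129 CPM in OVKATE to 185 CPM in SK-OV-3. UQCRC2, the other core subunit, was at 74.0 CPM in OVTOKO against 143 to 201 CPM on PromethION elsewhere, a log2 change of -1.36 (SE 0.18, edgeR adjusted p = 0.00069). UQCR11, a small subunit joined in the files with MBD3, was highest in IGROV-1 (717 and 732 CPM) and was lower in COV362 at 332 CPM (log2 change -1.09, SE 0.16, edgeR adjusted p = 0.00092).

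Complex IV showed use of a second gene in a single line. COX7B2, a paralogue of COX7B known from testis, had 89.1 CPM (176 counts) in SK-OV-3 and 0 in the other 9 libraries. Against a floor of 3 counts over both IGROV-1 PromethION libraries (0.643 CPM) it was at least 139-fold higher. The gene passed the filter on low counts only through SK-OV-3, so its call, which is among the 12 higher members there, was fixed by that filter and is no support. It made up 20.4% of the summed COX7B and COX7B2 counts in SK-OV-3, where COX7B was at 348 CPM, within its range of 243 to 869 CPM over the other PromethION libraries. The other tissue-restricted genes stayed near 0: COX6A2, of heart and muscle, had 0 in all libraries, and COX6B2, COX7A1 and COX8C did not exceed 1.48 CPM.

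Among the common complex IV genes, COX6A1 was highest in OVKATE at 1788 CPM, against 422 and 425 CPM in IGROV-1, a log2 change of 1.78 (SE 0.14, edgeR adjusted p = 3.2e-05). The files join it with GATC, whose transcript held 3.0% of the identifier in OVKATE and 9.7% and 11.7% in IGROV-1. COX6C was at 267 CPM in COV362 and 332 CPM in OVMANA, against 647 and 627 CPM in IGROV-1 and 1490 CPM in OVKATE. In COV362 its log2 change was -1.21 (SE 0.16, edgeR adjusted p = 0.00067). NDUFA4, once counted as a complex I subunit, was at 367 CPM in SK-OV-3 and 480 in OVTOKO and reached 1733 CPM in OVKATE. Its IGROV-1 replicates themselves lay apart, at 1416 and 843 CPM on PromethION and 1742 and 1097 CPM on MinION.

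In ATP synthase, 2 neighbouring subunits of the central stalk differed from IGROV-1 in opposite directions. ATP5D, the delta subunit, was highest in IGROV-1, with 284 and 305 CPM on PromethION and 430 and 457 CPM on MinION. The other lines had 58.8 (OVMANA), 137 (COV504), 138 (COV362), 161 (OVKATE), 170 (OVTOKO) and 238 CPM (SK-OV-3), with no overlap. Its log2 change ran from -2.26 in OVMANA (SE 0.18, edgeR adjusted p = 4.7e-05) to -0.54 in SK-OV-3 (SE 0.15, edgeR adjusted p = 0.022), and the call in SK-OV-3 was lost under 5 of 13 alternatives. ATP5E, the epsilon subunit, was lowest in IGROV-1, with 607 and 526 CPM on PromethION and 704 and 624 CPM on MinION. The other lines ran from 1000 CPM in SK-OV-3 to 2071 CPM in OVKATE, again with no overlap. Its log2 change ran from 0.59 in SK-OV-3 (SE 0.18, edgeR adjusted p = 0.027) to 1.80 in OVMANA (SE 0.17, edgeR adjusted p = 0.00012). All 12 of these calls rest on the same IGROV-1 libraries.

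The c ring, which turns in the membrane as protons pass, is encoded by 3 genes for the same mature protein. ATP5G3 gave 47.4% (OVTOKO) to 69.9% (OVKATE) of their summed counts. ATP5G1 gave 7.57% in OVMANA (143 CPM) and 27.3% in OVTOKO (552 CPM), with 20.4% and 20.1% in IGROV-1 (242 and 219 CPM). Its level was called higher in OVKATE (671 CPM, log2 change 1.24, SE 0.19, edgeR adjusted p = 0.001) and OVTOKO (1.34, SE 0.19, edgeR adjusted p = 0.0012) and lower in SK-OV-3 (114 CPM, -1.25, SE 0.22, edgeR adjusted p = 0.0025). ATP5G2 gave 35.3% in COV362 (632 CPM) and 10.7% in OVKATE (373 CPM). In COV362 its log2 change was 1.45 (SE 0.15, edgeR adjusted p = 0.0002). In COV504 the 3 genes gave 26.3% (ATP5G1), 23.5% (ATP5G2) and 50.2% (ATP5G3), and their 95% Wilson intervals overlapped with those of OVTOKO. ATP5J2LP, which the naming rule admits and GENCODE 29 lists as a processed pseudogene, was at 0 in all libraries.

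Transcript usage was tested with edgeR's splice test on transcripts, with a Simes p per gene. Between instruments 3 of 39 tested members were called, against 5.81% of 2979 genes, and 8 members had an unadjusted p under 0.05. In NDUFB1, a membrane arm subunit, ENST00000329559 held 73.5% and 74.0% of the gene's counts on PromethION and 32.7% and 32.9% on MinION, with no overlap (edgeR adjusted p = 0.0011). ENST00000605997 and ENST00000617122 are shorter at the 5′ end (336 and 417 nt, against 528 nt). Their mean shares were 12.6% (SD 1.18) and 11.9% (SD 0.211) on PromethION and 32.2% (SD 0.567) and 32.5% (SD 0.645) on MinION (n = 2 each). On PromethION the share of ENST00000329559 ranged from 37.9% in OVMANA to 79.4% in OVTOKO. The other calls were smaller: ENST00000549748 of ATP5G2 went from 3.9% and 4.0% to 8.5% and 11.8%, and ENST00000184266 of NDUFB4 from 98.3% and 98.7% to 99.8% and 99.8%.

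NDUFS5, a membrane arm subunit whose total level varied little, was called for usage in 5 of the 6 lines. The form with the 4 extra bases, ENST00000372969, held 1.2% and 2.6% in IGROV-1 PromethION, 2.1% and 2.3% on MinION and 2.2% in OVKATE. It held 24.3% in OVMANA (95% Wilson interval 21.4% to 27.5%), 31.7% in SK-OV-3, 36.7% in OVTOKO, 42.9% in COV504 and 56.2% in COV362 (53.2% to 59.2%). These 5 lines lay above IGROV-1 and OVKATE with a gap of more than 20 percentage points. The adjusted p of edgeR was 2.3e-06 in COV362 and 0.00012 in OVMANA, and the calls in all 5 lines held under every alternative tried. Both forms hold 318 coding bases, and exon 1 ends at position 39026402 in the longer form and 39026398 in the shorter one.

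ATP5C1 encodes the gamma subunit, the shaft of the central stalk, and its 37-base exon is known to be left out in muscle. The form without the exon, ENST00000335698, held 57.4% in SK-OV-3, 19.4% in COV504, 13.5% in COV362, 4.4% in OVTOKO, 1.0% in OVMANA and 0.6% in OVKATE. In IGROV-1 it held 7.1% and 8.5% on PromethION and 9.1% and 9.2% on MinION. SK-OV-3 lay far above all other libraries (edgeR adjusted p = 8.3e-05, called under every alternative). Usage was also called in OVKATE (edgeR adjusted p = 0.00033), OVMANA (edgeR adjusted p = 0.0062) and COV504 (edgeR adjusted p = 0.044), and the COV504 call was lost under 5 of 7 alternatives. As the printed ends show, the 2 forms have 891 and 894 coding bases, so the form with the exon encodes 1 residue more.

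In ATP5G1, ENST00000393366, which has another first exon and the same coding length of 408 bases, held 42.2% in OVTOKO and 29.2% in SK-OV-3, against 13.2% and 10.4% in IGROV-1 and 9.2% to 20.2% in the other lines. The OVTOKO call (edgeR adjusted p = 0.0056) was lost under 2 of 7 alternatives. By line, usage was called for 8 of 43 members in OVKATE (4.69% of 4730 genes), 5 in COV362 (2.75%), 5 in COV504 (2.52%), 3 in OVMANA (2.83%), 3 in OVTOKO (1.37%) and 2 in SK-OV-3 (2.01%). The calls in COX6A1 (OVKATE, OVTOKO, COV362 and COV504) and NDUFC2 (OVKATE) involve transcripts of the joined genes GATC and KCTD14, and the identifier of ATP5J2 includes PTCD1. The largest remaining shifts in OVKATE were ATP5D (ENST00000215375, 40.7% against 17.9% and 18.6%), ATP5J2 (ENST00000449683, 30.4% against 48.8% and 44.0%), NDUFB10 (ENST00000543683, 7.7% against 19.0% and 23.1%) and NDUFA2 (ENST00000252102, 96.7% against 86.3% and 82.9%). In COV362 ENST00000284971 of ATP5J held 62.2% against 79.6% and 77.9%, and ENST00000391762 of NDUFA3 held 16.2% against 4.4% and 2.9%. When only the 8 PromethION libraries were fitted, 1 member kept its usage call in COV362, with 0.952% of all genes called. As the NDUFS5 call held under every alternative, the calls of ATP5J and NDUFA3 were lost there.

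**Figure D5:**
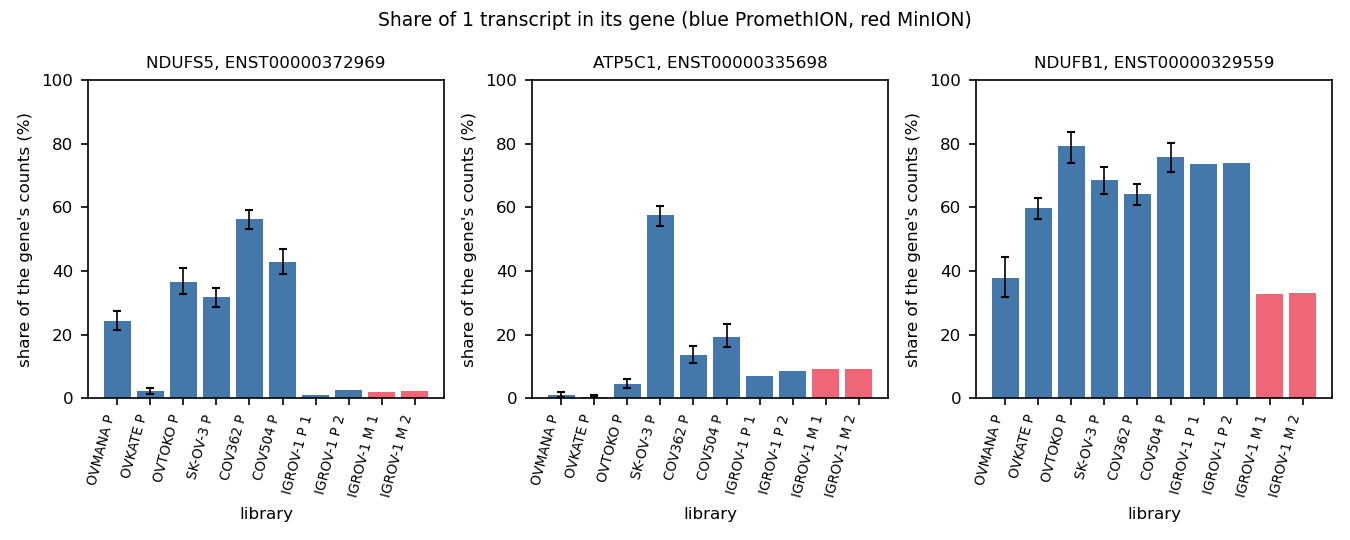
Share of a gene's counts (y axis, percent) held by ENST00000372969 of NDUFS5, ENST00000335698 of ATP5C1 and ENST00000329559 of NDUFB1 in 10 libraries (x axis); error bars on the 6 lines with 1 library are 95% Wilson intervals. The shares reach 56.2% in COV362 for NDUFS5 and 57.4% in SK-OV-3 for ATP5C1, and for NDUFB1 the MinION libraries lie at 32.7% and 32.9%.

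The subunits encoded in mitochondrial DNA were lower in the other lines than in IGROV-1, in OVKATE too, where most nuclear members called were higher. All 13 were called lower in OVKATE, SK-OV-3 and COV504 than in IGROV-1 PromethION, and 12 in OVMANA, 12 in COV362 and 10 in OVTOKO, with none higher in any line. Their median log2 change was -1.61 in OVKATE and ran from -2.12 in COV504 to -1.20 in OVTOKO. MT-CO1, the catalytic subunit of complex IV, stood at 3816 and 3602 CPM in IGROV-1 PromethION and 1220 CPM in OVKATE, with 885 to 1528 CPM in the other lines. Mitochondrial protein-coding and other non-ribosomal transcripts took 3.90% and 4.21% of counts in IGROV-1 PromethION and 1.02% to 1.87% in the other lines. The same 2 IGROV-1 libraries had the high share of mitochondrial ribosomal RNA given above. On the MinION, the IGROV-1 libraries had 1.15% and 1.01% mitochondrial ribosomal RNA and 4.48% and 5.34% other mitochondrial transcripts. Whether the 2 shares are linked was not tested.

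Genes that assemble the complexes followed no single direction. Of 45 assembly factors tested, 12 rose and 7 fell in OVKATE, where 26.7% of all genes rose and 22.3% fell. The counts were 7 and 11 for SK-OV-3, 10 and 4 for OVTOKO, 7 and 13 for COV504, 10 and 7 for OVMANA, and 8 and 8 for COV362. In those lines 18.2% to 23.9% of all genes rose and 15.9% to 19.8% fell. COX17, the copper chaperone of complex IV, was at 43.6 and 57.6 CPM in IGROV-1 and 311 CPM in OVKATE, with 76.9 to 204 CPM in the other lines. TIMMDC1, a complex I assembly factor, was at 31.2 and 38.7 CPM in IGROV-1 and 74.6 to 155 CPM in the others. Among 11 tested regulators of mitochondrial genes, 3 rose and 4 fell in OVKATE. TFAM, the transcription factor of mitochondrial DNA, was among those that rose, with 102 CPM in OVKATE and 41.0 and 43.0 CPM in IGROV-1. NRF1, a transcription factor of many of these genes, was not called in any line, with 5.57 to 10.7 CPM in the other lines and 7.69 and 9.88 CPM in IGROV-1. Of 14 genes of the citric acid cycle 5 rose and 4 fell in OVKATE, with a median log2 change of 0.18. COX4I1, a complex IV subunit outside the naming rule, was lower in OVKATE (634 CPM, against 762 and 746 CPM in IGROV-1), and cytochrome c, CYCS, was at 114 CPM in SK-OV-3 against 445 and 452 CPM in IGROV-1.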

How the data were processed

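Nanopore reads of 10 libraries were aligned with minimap2 2.24-r1122 to GRCh38, per the submitters' processing notes, while the quantifier and its strand setting were not given in the sources used. The authors deposited estimated counts for 99493 transcripts in each library. The TPM values the authors deposited equal the count divided by the library's total, with no length term (largest gap 5.6e-11), and are called CPM here. Of the transcripts, 99.7% were found in GENCODE 29 and 98.6% had the same coordinates there. The files join several genes under 722 of the 57110 gene identifiers, 13 of the 83 members among them.

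Estimated counts as deposited were rounded per transcript (at most 0.0258% of a library was lost) and summed per gene. They were tested in R 4.3.3 with edgeR 4.0.16 (TMM factors, filterByExpr, quasi-likelihood test, Benjamini-Hochberg adjustment over all genes, adjusted p under 0.05), with DESeq2 1.42.0 as an alternative. Spread came from IGROV-1 alone, with 2 residual degrees of freedom and a biological coefficient of variation of 11.8% between instruments and 11.7% between lines. Of the members, 77 passed the filter between instruments and 78 between lines; those that passed only through a line where they are high had to differ. Intervals are 95% Wilson intervals and a count of 0 was taken to allow 3 counts. The tests were also run on simulated data, where 76.5% of genes changed by 1 on the log2 scale were recovered between instruments (9984 genes) and 51% in OVKATE (11703 genes). Of changes of 0.5, 0.5% were recovered between instruments (10018 genes) and 0% in OVKATE (11677 genes). Only 200 genes were changed in each simulation, far fewer than were called between lines. The recovered shares therefore need not hold for the comparisons between lines, where some changes near that size were called.

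Members and lists were chosen with earlier results of these data known. Named were the 3 largest called changes each way per line, every call or the 3 largest changes each way between instruments, the 5 widest and narrowest ranges, the 5 highest and lowest levels per kb, up to 4 usage shifts per comparison, the paralogues, and joined or undetected members where a result turned on them. ATP5L, NDUFA5, NDUFA4, UQCRC2, the complex II genes, LRRC41 with its neighbours, and the genes named from the other lists were added after their values were seen. Single values of 1 member are not reported here; the counts and sums include it. Older symbols are those of the files; ATP5A1, ATP5B, ATP5C1, ATP5D and ATP5E are now ATP5F1A to ATP5F1E.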

Additional observations from a re-analysis of the deposited data

How the results depend on the processing

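Directions held: of 75 calls on named members, none reversed and 46 were called under every alternative run. Between instruments, where 1 member was called, the count was 0 without a filter (0.0914% of all genes called) and 0 with a filter at 10 CPM (0.875%). With the replicate number as a block it was 34 of 77 (29 higher), 44.2% against 19.3% of all genes. The 2 pairs deviated together (r = 0.49 over 7890 genes), which is too few pairs to show that the numbers mark shared cultures. With DESeq2 the counts of 78 were 17 in OVMANA (11.3% of all genes called), 25 in OVKATE (16.5%), 13 each in OVTOKO (10.9%), SK-OV-3 (13.7%) and COV362 (12.9%), and 12 in COV504 (13.9%). Without joined genes COV504 had 17 of 66 (25.8%, against 43.2% of all genes). Leaving out 1 IGROV-1 library gave 22 to 32 in OVMANA and 21 to 30 in OVTOKO (both lowest without MinION replicate 1), 23 to 29 in COV362 (lowest without PromethION replicate 2), 37 to 45 in OVKATE, 28 in SK-OV-3 and 22 to 25 in COV504. For usage, the gene-level F test called 6 members between instruments (12% of all genes), 7 in OVMANA (6.7%), 6 in SK-OV-3 (5.88%), 9 in COV362 (8.31%) and 8 in COV504 (6.6%). A filter at 10 CPM gave 5 of 27 in OVMANA (9.53%). Fitting only the 8 PromethION libraries gave 1 in OVMANA (0.775%), 5 in OVKATE (1.84%), 1 in COV362 (0.952%) and 1 in COV504 (0.841%). Leaving out 1 library gave 1 to 2 usage calls between instruments and in OVMANA, OVTOKO and COV362, 4 to 6 in OVKATE, 2 in SK-OV-3 and 1 in COV504. The causes were not tested. With 1 library per line, no result between lines has a replicate on the line's own side.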

Other observations

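The naming rule set aside 51 pseudogenes of the same families, of which 6 had at least 1 count in some library. Their sum ran from 21.0 to 128 CPM per library and lay mostly in ATP5EP2, a copy of ATP5E. ATP5EP2 had 124 CPM in OVMANA, 127 in OVKATE, 91.7 in COV362, 82.3 in COV504, 52.6 in OVTOKO and 49.1 in SK-OV-3, against 44.4 and 28.8 CPM in IGROV-1 PromethION and 20.2 and 23.8 CPM on MinION. All 6 other lines were above IGROV-1, as for ATP5E itself, and reads of this copy and its parent may be shared.

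Promoters of 65 members were found among 27305 RefSeq promoters (GRCh38.p14, 250 bases before to 50 after the start). The members' promoters held a median of 23 CG dinucleotides, against 14 over all. The ETS motif CCGGAAG, on either strand, was in 18 of the 65 (27.7%, against 10.7% of all promoters), and CCAAT, on either strand, in 22 (33.8%, against 35.7%). A match is a description of letters in the window, and none of these promoters was measured here.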
